A study of Mus musculus with 2 samples.

Results

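The genes examined here restrain or receive signals of the interleukin-6 family in microglia of sham-operated mice. The set holds 10 genes, taken by name from the 53801 genes listed in each count file: 4 genes of the suppressor of cytokine signalling family (Socs1, Socs2, Socs3 and Cish), the STAT inhibitor gene Pias1, the phosphatase genes Ptpn2 and Ptpn6, and the receptor genes Il6ra, Il6st and Osmr. Symbols were taken from GENCODE M21 names for the Ensembl identifiers, and all 10 genes had 1 row each. The rule that finds them uses names alone and no measured value, but the genes were proposed with earlier results of these data known.

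Receptors of this family share the chain gp130, encoded by Il6st. A ligand brings gp130 together with a partner chain, the Janus kinases bound to the receptors phosphorylate STAT proteins, mainly STAT3, and the STATs enter the nucleus and start transcription. Among their targets are the SOCS genes, whose products bind the kinases or the receptors and shut the signal down again. PIAS proteins act on STATs in the nucleus, and the phosphatases TC-PTP (Ptpn2) and SHP-1 (Ptpn6) remove phosphate from kinases, STATs and receptor complexes. In microglia the pathway is known for its part in inflammatory activation and in its control.

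RNA-seq was carried out on microglia sorted from 2 mice of 1 group, labelled WT sham microglia, with genotype Cx3cr1(CreER/wt) on a C57BL/6 background. One Cx3cr1 allele of these mice carries a tamoxifen-inducible Cre recombinase in place of the receptor gene, which is active in microglia and also in other macrophages, and no floxed allele is given in the labels. Tamoxifen was injected on 4 days at 75 mg/kg/day, sham surgery followed 14 days after the first injection, and CD11c–Ly6G–CD11b+CD45low cells were sorted 3 days after surgery, 1 mouse per library. The labels describe males of 8 to 10 weeks, whereas the study's methods give another age range and both sexes. Stroke samples were not analysed here, so no condition was compared and no test was run. The 2 libraries give the level of each gene and its spread between 2 mice.

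Library 1 held 23381026 counts on genes and library 2 held 41142609, and 13445 genes (25.0% of those listed) had at least 10 counts in both, which is called counted below. Levels are given as CPM, the count of a gene per 1000000 counts on genes. Where no read was found, a level of 3 counts is taken as the limit, which is 0.128 CPM in library 1 and 0.0729 in library 2. Such limits, and the intervals of single libraries, cover counting error only. All 10 microglia markers checked were counted in both libraries, and together they had 39111 CPM in library 1 and 44410 in library 2. The libraries were not alike in other cells: the 10 neutrophil markers summed to 4555 CPM in library 1 and 61834 in library 2. All 10 were over 2-fold higher in library 2, beside 5.74% of all counted genes. Ly6g, the neutrophil antigen that the gate was set to leave out, was found with 360 counts in library 1 but 8662 in library 2. The 5 choroid plexus markers summed to 24.3 CPM in library 1 and 370.03 in library 2, where 1 marker alone had 356 CPM. The 5 monocyte markers summed to 676 and 3337 CPM, but 1 marker alone had 2901 CPM in library 2. Of these 5, 2 were over 2-fold higher in library 2 and 2 were lower by any amount. Their median log2 ratio of library 2 over library 1 was 0.23. The 5 markers of border macrophages, which lie along vessels and meninges, summed to 437 CPM in library 1 and 214 in library 2. All 5 were lower in library 2, beside 61.5% of all counted genes that were lower there by any amount. Mrc1 (189.5 and 42.7 CPM) and Cd163 (48.5 and 10.8 CPM) were over 2-fold lower, beside 25.9% of all counted genes. Sums were 101 and 111 CPM for oligodendrocyte, 3.55 and 4.96 CPM for neuron, 569.9 and 778 CPM for B cell and 0.128 and 3.38 CPM for T and NK cell markers. Only 2 of the 5 B cell markers were counted, and 1 marker alone had 720 CPM in library 2. None of the 5 T and NK cell markers was counted. The libraries also differed by transcript length, as described for the members below. In sorted bulk RNA, fewer cells of a type and less RNA per cell cannot be told apart.

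STAT proteins bind the letters TTCNNNGAA, and 2 of the members carry them near their RefSeq start. RefSeq windows of 300 bases (GRCm38.p6, 250 bases before to 50 after the start) were found for 8 of the 10 genes. The motif reads the same on both strands, and 8.30% of all 32851 windows held it at least once. Cish and Socs3, which are both known STAT targets, were the genes among the 8 whose window held it. Cish held it 2 times, which was the case for 0.457% of all windows. The windows of Socs1, Pias1, Ptpn6, Il6ra, Il6st and Osmr did not contain these letters. The stretches with the matches in capitals are shown here because both genes encode feedback inhibitors and yet stood near opposite ends of the SOCS family in level, as given below. The Cish stretch of 30 bases lies at chr9:107296655-107296684 on the plus strand, and its first match begins with the first base of the RefSeq transcript. The Socs3 stretch of 60 bases lies at chr11:117969491-117969550 on the minus strand, and its match begins 154 bases before the RefSeq start. Both stretches lie inside the Ensembl spans of these genes given below, whose starts are not the RefSeq starts.
Cish: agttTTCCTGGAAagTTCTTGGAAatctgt
Socs3: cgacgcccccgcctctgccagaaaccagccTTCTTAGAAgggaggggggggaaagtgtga

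Socs3 was the dominant SOCS gene in both mice. It encodes the inhibitor that binds gp130 and the attached Janus kinases. Socs3 (ENSMUSG00000053113, chromosome 11 of GRCm38, 117966079 to 117970047, minus strand) had 8525 counts or 365 CPM in library 1 and 4639 counts or 113 CPM in library 2, a mean of 239 ± 178 CPM (SD, n = 2 libraries). Library 1 was the higher one, by 3.23-fold. Per kilobase of merged exons, the scale on which genes are compared here, Socs3 had 126 CPM per kb in library 1 and 39.0 in library 2. It made up 89.3% of the summed CPM per kb of the 8 SOCS family genes in library 1 and 76.7% in library 2. Thus the share of Socs3 in the family was high in both libraries although its level was not the same.

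Socs1, the SOCS gene best known as the brake on interferon signalling, was present at a moderate level. Socs1 (ENSMUSG00000038037, chromosome 16, 10782240 to 10785536, minus strand) had 389 counts or 16.6 CPM in library 1 and 509 counts or 12.4 CPM in library 2, a mean of 14.5 ± 3.02 CPM (SD, n = 2). Socs3 exceeded Socs1 by 22.0-fold in library 1 and by 9.17-fold in library 2 per kilobase.

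Cish and Socs2 were the lowest of the 8 SOCS family genes per kilobase of merged exons in both libraries. In library 2, Cish (0.492 CPM per kb) lay close to Socs7 (0.535 CPM per kb), and their order depends on the lengths used. Both are known as feedback inhibitors of STAT5-activating receptors, Socs2 above all of the growth hormone receptor. Cish (ENSMUSG00000032578, chromosome 9, 107296026 to 107302784, plus strand) had 21 counts or 0.898 CPM in library 1 (95% exact Poisson interval 0.556 to 1.37) and 130 counts or 3.16 CPM in library 2 (2.64 to 3.75). Socs2 (ENSMUSG00000020027, chromosome 10, 95385362 to 95417180, minus strand) had 18 counts or 0.770 CPM in library 1 (0.456 to 1.22) and 92 counts or 2.24 CPM in library 2 (1.80 to 2.74). For both genes library 2 was the higher one and the counting intervals of the libraries did not overlap. Neutrophil markers (4555 and 61834 CPM) and choroid plexus markers (24.3 and 370.03 CPM) were also higher in library 2. Border macrophage, endothelial and astrocyte markers summed to less there. The part of other cells in the levels of Cish and Socs2 was not tested. The means were 2.03 ± 1.6 CPM for Cish and 1.5 ± 1.04 CPM for Socs2 (SD, n = 2).

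**Figure D1:**
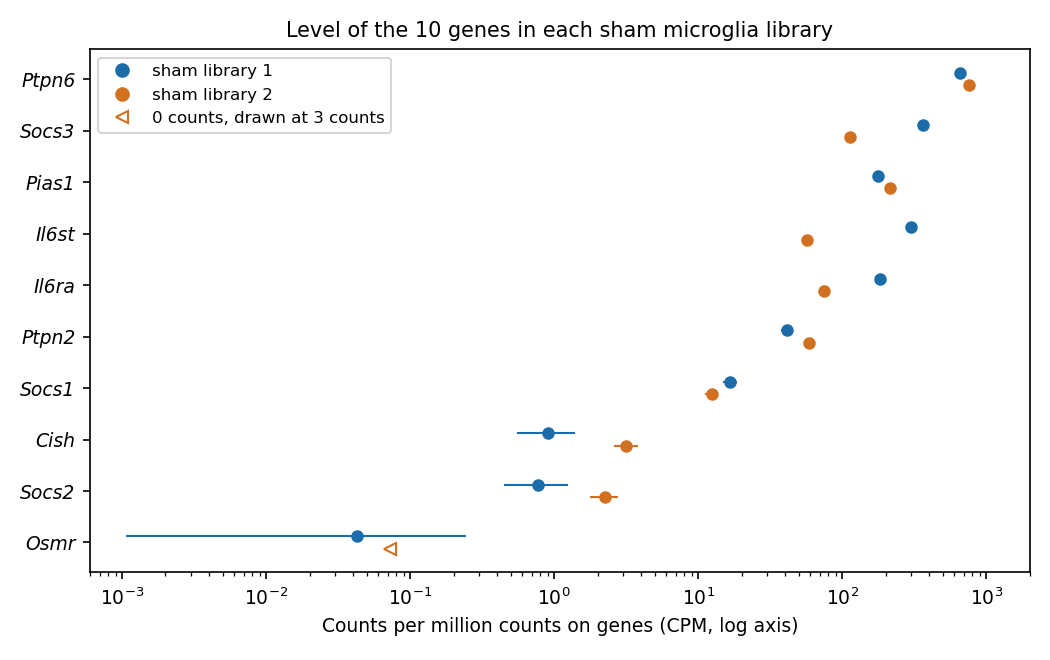
The level of each of the 10 genes in CPM (log axis), with sham library 1 in blue and sham library 2 in orange. Lines are 95% exact Poisson intervals of the count, hidden by the point where counts are high, and the open triangle is a count of 0 drawn at 3 counts. Ptpn6 was highest with 651 and 763 CPM, and Osmr had 1 count in library 1 and 0 in library 2.

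Pias1, which encodes an E3 SUMO ligase that restrains STAT proteins, differed little between the libraries in CPM. Pias1 (ENSMUSG00000032405, chromosome 9, 62878368 to 62987924, minus strand) had 4160 counts or 178 CPM in library 1 and 8795 counts or 214 CPM in library 2, a mean of 196 ± 25.3 CPM (SD, n = 2). Library 2 was higher by 1.20-fold, or by 0.79 on the log2 scale after the GC and length adjustment given below. Among the 4 PIAS genes it took 45.9% of the summed CPM per kb in library 1 and 56.0% in library 2. It exceeded Pias4, the next highest, by 2.01-fold and 2.54-fold per kilobase, so its place at the head of the family was shared by both libraries. Pias3, known as the STAT3 inhibitor of the family, was the lowest, with 28.3 CPM in library 1 and 11.2 in library 2.

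Ptpn6 was the most abundant of the 10 genes on either scale. It encodes SHP-1, the phosphatase of blood and immune cells that docks to inhibitory receptors. Ptpn6 (ENSMUSG00000004266, chromosome 6, 124720707 to 124738714, minus strand) had 15232 counts or 651 CPM in library 1 and 31398 counts or 763 CPM in library 2, a mean of 707 ± 79.0 CPM (SD, n = 2). The libraries differed by 1.17-fold, with library 2 the higher one. With 233 and 272 CPM per kb, it stood at the 98.7th percentile of the counted genes in each library.

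Ptpn2, whose nuclear product TC-PTP acts on STAT proteins, was far lower. Ptpn2 (ENSMUSG00000024539, chromosome 18, 67665511 to 67724595, minus strand) had 958 counts or 41.0 CPM in library 1 and 2422 counts or 58.9 CPM in library 2, a mean of 49.9 ± 12.7 CPM (SD, n = 2), and library 2 was higher by 1.44-fold. Per kilobase, Ptpn6 exceeded Ptpn2 by 17.7-fold in library 1 and 14.5-fold in library 2. Ptpn11, which encodes SHP-2, the broadly expressed relative of SHP-1 that gp130 recruits, had 32.0 CPM in library 1 and 32.3 in library 2, and Ptpn6 exceeded it by 54.4-fold and 63.3-fold per kilobase. Ptpn1, the gene of the closest relative of TC-PTP, had 614 and 398 CPM. Ptprc, whose product CD45 also acts on Janus kinases and was one of the sorting antigens, had 418 and 381 CPM.

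The receptor chains gp130 and the interleukin-6 receptor were both present, and both were lower in library 2. Il6st (ENSMUSG00000021756, chromosome 13, 112464070 to 112510086, plus strand) had 7010 counts or 299.8 CPM in library 1 and 2335 counts or 56.8 CPM in library 2, a mean of 178 ± 172 CPM (SD, n = 2). The difference was 5.28-fold, the widest among the 9 counted members in CPM, though not after the GC and length adjustment given below, where Cish and Socs2 differed more. Il6ra (ENSMUSG00000027947, chromosome 3, 89864059 to 89913196, minus strand), the chain that binds interleukin-6 itself, had 4270 counts or 183 CPM in library 1 and 3049 counts or 74.1 CPM in library 2, a mean of 128 ± 76.7 CPM (SD, n = 2), a difference of 2.46-fold. Inside a library, Il6st exceeded Il6ra by 1.28-fold in library 1 but was at 0.596 of Il6ra in library 2. Which of these chains is the more abundant was therefore not the same in the 2 mice. Border macrophage markers were lower in library 2 as well, at 437 and 214 CPM, and their part in the receptor levels was not tested.

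Osmr, the partner chain of gp130 for oncostatin M, was close to absent from the counts. Osmr (ENSMUSG00000022146, chromosome 15, 6813577 to 6874969, minus strand) had 1 count in library 1, or 0.0428 CPM (95% exact Poisson interval 0.00108 to 0.238). It had 0 counts in library 2, where the same kind of interval reaches 0.0897 CPM. Both values were under 3 counts. Per kilobase, Il6st exceeded Osmr in library 1 by a ratio of 7650.4 (95% exact binomial interval 1373 to 302218) and Il6ra did so by 5985 (1074 to 236450.2), intervals that are wide because Osmr had 1 count. In library 2, with Osmr taken at 3 counts, Il6st was 849-fold higher and Il6ra 1425-fold higher. These 3 counts (0.0729 CPM) are less than the upper end of the interval, so these ratios are not strict minima. Osmr is known in astrocytes and endothelial cells. Among the markers of those cells, Cldn5 had 1 count in each library, and Gfap had 27 and 32 counts. The 5 endothelial markers summed to 22.1 CPM in library 1 and 17.1 in library 2. The 6 astrocyte markers summed to 226 and 177 CPM, of which Slc1a3 gave 219 and 169 CPM. No astrocyte marker was at 0 in either library. The part of these cells in the Osmr level was not tested.

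Ordered by mean CPM per kb, the members ran Ptpn6, Socs3, Pias1, Il6st, Ptpn2, Il6ra, Socs1, Cish, Socs2 and Osmr. The ranges of the 2 libraries overlapped between Pias1 and Il6st, between Il6st and Ptpn2, between Ptpn2 and Il6ra, and between Cish and Socs2, so these neighbours did not differ beyond their spread. The other 5 neighbouring pairs did not overlap. Among the counted genes, the mean CPM per kb stood at the 95.7th percentile for Socs3, the 87.2nd for Pias1, the 79.2nd for Il6st, the 79.1st for Ptpn2, the 77.8th for Il6ra, the 55.7th for Socs1, the 8.23rd for Cish and the 2.93rd for Socs2. Lengths are those of all annotated exons merged. For Socs2 (9531 bases against 4242 in its longest transcript), Cish (6419 against 4697) and Osmr (12113 against 5491) this lowers the value per kilobase. The ratios of Il6st and Il6ra over Osmr given above would therefore be lower with the longest transcripts.

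**Figure D2:**
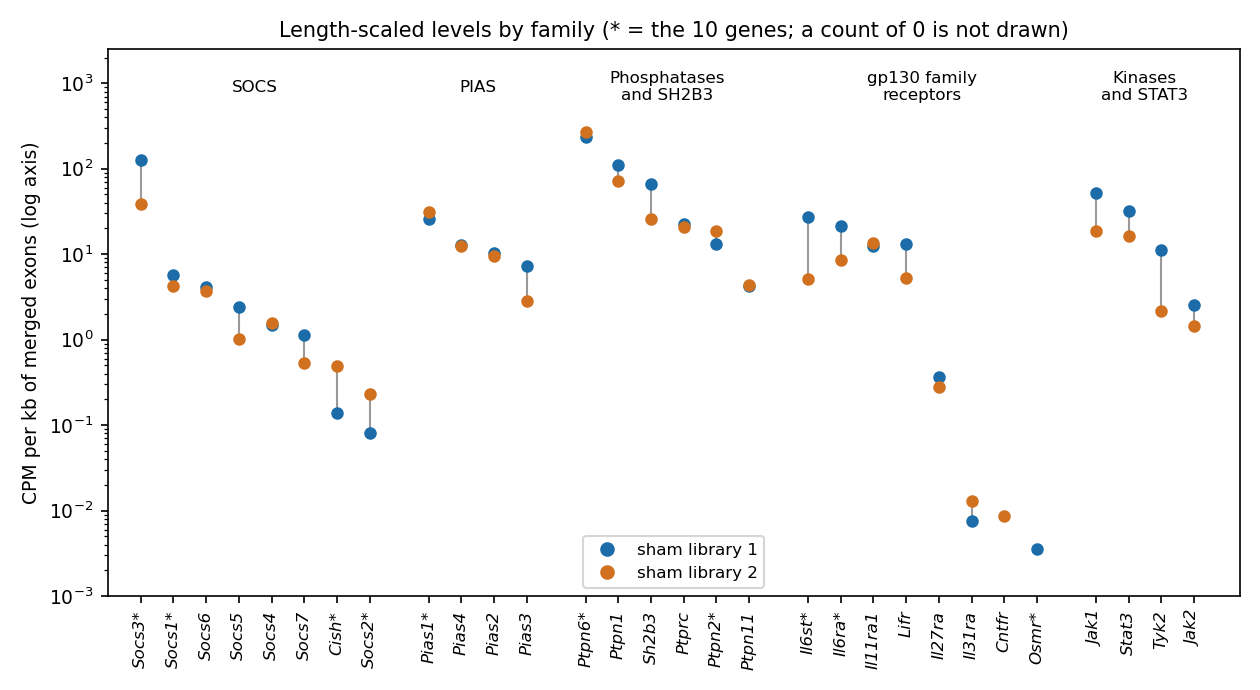
CPM per kb of merged exons (log axis) for the 10 genes, marked with an asterisk, and their relatives, grouped by family and ordered by mean; blue is sham library 1, orange is sham library 2, and a count of 0 is not drawn. Socs3 stood apart from the other SOCS genes in both libraries, with 126 and 39.0 CPM per kb.

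The relatives of the receptors were read from a list of 5 further chains, of which 3 were counted. Lifr, the partner chain for leukemia inhibitory factor, had 141 CPM in library 1 and 57.2 in library 2. In CPM its ratio between libraries (log2 −1.30) was that of Il6ra (log2 −1.30). After the GC and length adjustment given below, the log2 ratios were −0.49 for Lifr and −0.10 for Il6ra. Il11ra1, the chain for interleukin-11, had 55.9 and 59.8 CPM and was thus alike in both. Il27ra had 30 and 40 counts. Cntfr, with 0 and 1 counts, and Il31ra, with 1 and 3 counts, were like Osmr at or under 3 counts. The receptor chains that were counted besides gp130 were therefore those for interleukin-6, leukemia inhibitory factor, interleukin-11 and interleukin-27.

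Of the 10 ligand genes of the family, 5 were counted. Osm, the gene of oncostatin M, whose specific receptor chain had at most 1 count, was the highest of them with 2416 counts or 103 CPM in library 1 and 11961 counts or 291 CPM in library 2. It was 2.81-fold higher in library 2, beside neutrophil markers that summed to 4555 and 61834 CPM. The gate was set against Ly6G, yet Ly6g itself was 13.7-fold higher in library 2. The part of these cells in the Osm level was not tested. Il6 had 101 counts or 4.32 CPM and 540 counts or 13.1 CPM, 3.04-fold higher in library 2. Clcf1 had 39.9 and 37.1 CPM, Ebi3 34.6 and 55.4 CPM, and Il27 3.34 and 6.81 CPM. Il11 and Cntf had 0 counts in both libraries, Lif had 1 and 0 counts and Ctf1 had 6 and 14 counts.

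The kinases and STAT3 that gp130 uses were counted in both libraries. Jak1, the kinase that gp130 signalling depends on most, had 371 CPM in library 1 and 136 in library 2. Stat3 had 305 and 157 CPM, Tyk2 77.6 and 14.9 CPM, and Jak2 12.9 and 7.24 CPM. All 4 were lower in library 2, beside 61.5% of all counted genes that were lower there by any amount. After the GC and length adjustment the log2 ratio was −0.52 for Jak1, −0.13 for Jak2, −1.07 for Tyk2 and 0.28 for Stat3, so that Tyk2 alone of the 4 was over 2-fold lower and Stat3 was higher. Jak1 exceeded Jak2 by 19.995-fold in library 1 and 13.1-fold in library 2 per kilobase. Il6st was at 0.843 of Stat3 in library 1 and at 0.310 in library 2, so that Il6st differed between the libraries by more than Stat3 did. Sh2b3, the gene of the adaptor LNK that restrains Jak2, had 316 and 125 CPM.

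**Figure D3:**
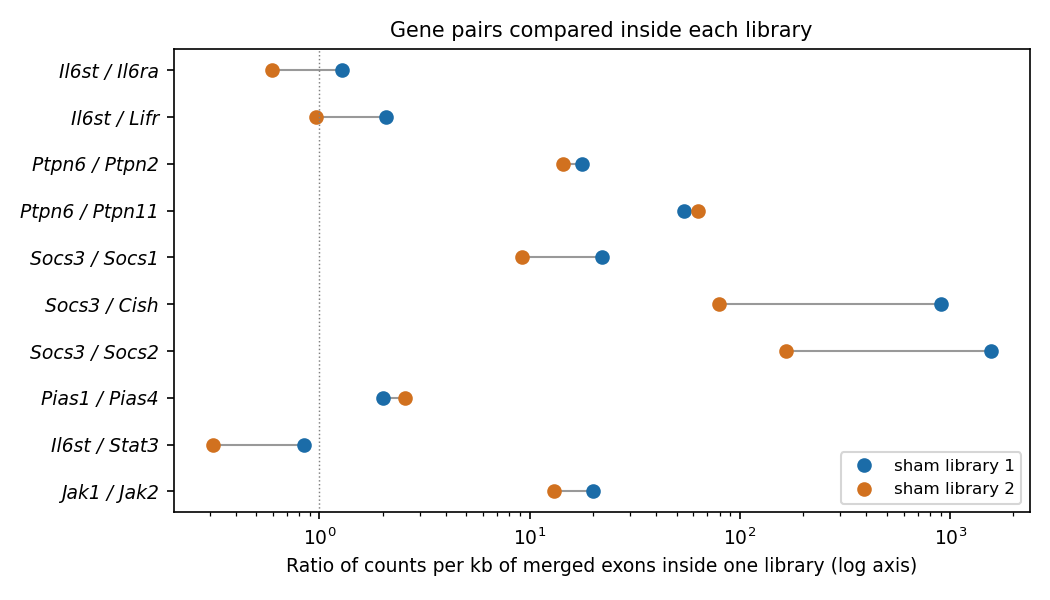
Ratio of 2 genes' counts per kb of merged exons inside one library (log axis), for 10 pairs, with sham library 1 in blue and sham library 2 in orange. The pairs with Ptpn6 and Pias1 lie close together, whereas Il6st over Il6ra lies on either side of 1, at 1.28 and 0.596.

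Between the 2 mice, 5 of the 9 counted members differed by more than 2-fold. Socs3, Il6ra and Il6st were over 2-fold lower in library 2, beside 25.9% of all 13445 counted genes. Cish and Socs2 were over 2-fold higher, beside 5.74% of the counted genes. Pias1, Ptpn2, Ptpn6 and Socs1 were within 2-fold. The log2 ratio of library 2 over library 1 was −2.40 for Il6st (95% exact binomial interval −2.47 to −2.33), −1.69 for Socs3 (−1.75 to −1.64), −1.30 for Il6ra (−1.37 to −1.23), −0.43 for Socs1 (−0.62 to −0.23), 0.23 for Ptpn6 (0.20 to 0.26), 0.26 for Pias1 (0.21 to 0.32), 0.52 for Ptpn2 (0.41 to 0.63), 1.54 for Socs2 (0.80 to 2.36) and 1.81 for Cish (1.14 to 2.55). The median was 0.23 over the 9 members and −0.26 over all counted genes. With TMM scaling all log2 ratios were 0.26 higher and the median of all counted genes was −0.01, and no member changed its direction or its side of 2-fold.

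The ratio fell with transcript length across all counted genes. Spearman's rho with the length of the longest transcript was −0.38 over 13439 genes, which are not independent of each other, and with GC content it was −0.14. Genes were put into 10 equal bins by either property. In the bin of longest transcripts (6443 bases and longer), which holds Il6st (8678 bases) and Il6ra (8639 bases), the median log2 ratio was −1.05 and 52.6% of genes were over 2-fold lower. Socs3 has a short transcript (2552 bases) in a bin with a median of 0.03, but a GC content of 58.7%, in the bin of highest GC content with a median of −0.64. Cish (4697 bases) and Socs2 (4242 bases) belong to a bin of long transcripts with a median of −0.77, in which 3.42% of genes were over 2-fold higher.

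After subtracting the median of genes of like GC content and length, the log2 ratio was −1.33 for Il6st, −1.11 for Socs3 and −0.10 for Il6ra. Il6ra was then within 2-fold, whereas Il6st and Socs3 stayed over 2-fold lower, beside 12.7% of the counted genes. Cish and Socs2 rose to 3.36 and 1.99, beside 9.70% over 2-fold higher. Socs1 turned from −0.43 to 0.19, and the values of Pias1, Ptpn2 and Ptpn6 were 0.79, 0.30 and 0.26. The part of length and GC content in the levels of single genes was not tested otherwise.

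**Figure D4:**
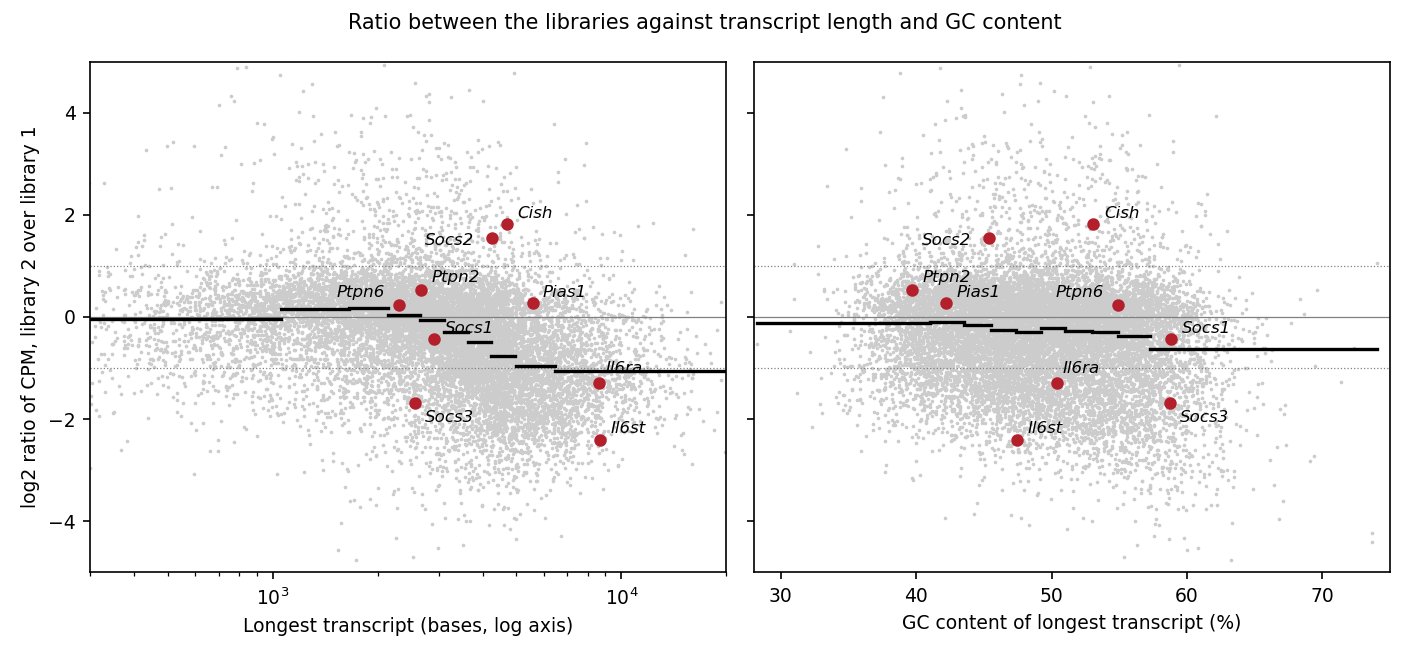
The log2 ratio of CPM in library 2 over library 1 against the length of the longest transcript (left, bases, log axis) and its GC content (right, %), for all counted genes in grey and the 9 counted members in red. Black bars are medians of the 10 bins of genes, dotted lines mark 2-fold, and 105 genes on the left and 2 on the right lie outside the axes. Il6st and Il6ra lie in the bin of longest transcripts, with a median of −1.05, and Cish and Socs2 lie above the medians of their bins.

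Socs3 is an early-response gene as well as a STAT target, and early-response transcripts were abundant in both libraries. The 12 early-response genes checked summed to 19233 CPM in library 1 and 22979 in library 2. In library 2, 3 of the 12 were over 2-fold lower, beside 25.9% of all counted genes, and 2 were over 2-fold higher, beside 5.74%. By any amount, 8 of the 12 were lower, beside 61.5% of all counted genes. The median log2 ratio was −0.14, beside −0.26 over all counted genes. Jun had 3760 and 3312 CPM, Fos 2786 and 5980 CPM, Klf2 196 and 30.4 CPM and Nr4a1 139 and 34.3 CPM. The study's authors acknowledge that the enzymatic digestion used to isolate the cells could alter microglial transcription ex vivo. The part of this step in the levels of Socs3 and of the early-response genes was not tested.

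Of the relatives, Socs5 and Socs7 among the 4 other SOCS genes, Pias3 among the 3 other PIAS genes, Sh2b3 among the 4 other phosphatase and adaptor genes, Lifr among the receptors, and Jak1 and Tyk2 among the kinases and Stat3 were over 2-fold lower in library 2, beside 25.9% of all counted genes, and in CPM none of these lists had a gene over 2-fold higher. Of the 10 ligands, Osm, Il6 and Il27 were over 2-fold higher, beside 5.74% of all counted genes, whereas Ebi3 (log2 0.68) and Clcf1 (log2 −0.10) were within 2-fold and the other 5 were not counted. With TMM scaling no other SOCS gene was over 2-fold lower. After the GC and length adjustment, Pias3 (−1.13) and Tyk2 (−1.07) were the only genes of these lists over 2-fold lower, beside 12.7% of the counted genes. Sh2b3 was then at −0.02, and Ptpn11, at 1.22, was over 2-fold higher, as Osm, Il6 and Il27 still were, beside 9.70%.

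Overlaps with genes on the other strand were annotated for Ptpn6, Il6ra and Cish, and those genes had few counts or none. Exons of Ptpn6 share 195 bases with Gm20531, an antisense gene that had 25 and 37 counts, and exons of Il6ra share 242 bases with Gm42809, an antisense gene with 19 counts in each library. Exons of Cish share 479 bases with Gm17041 and 261 bases with Gm17040, both on the other strand and both with 0 counts. Whether counting used the strand is not given in the sources used here, so reads of these stretches cannot be assigned with certainty.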

How the data were processed

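Microglia of 2 sham-operated mice were profiled by RNA-seq (SMART-Seq HT cDNA from total RNA, Nextera XT libraries, paired-end sequencing). HISAT2 alignment to GRCm38 and HTSeq counting by Ensembl identifier were done by the authors. What they deposited are counts, not normalized. Versions, annotation release and strand setting are not given in the sources used here. SMART-Seq priming on poly(A) and tagmentation make coverage depend on RNA integrity, transcript length and GC content.

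The members and the gene lists were chosen with earlier results of these data known, so no list is independent support. All 10 members are named throughout. Other genes come from the pathway and marker lists, of which some genes are not reported here, with values for those counted and those at the ends of their list, or overlap a member. GENCODE M21 names matched 53706 of 53801 identifiers, and the start and end of all 10 members were those of M21. CPM is counts divided by all counts on genes, times 1000000. CPM per kb divides by merged exon length. Ratios have exact binomial intervals and single counts exact Poisson intervals (95%), both for counting error only. The GC and length adjustment used 10 bins each and GC bins alone under 20 genes. It was tested on simulated data with a length bias but no GC bias, so its GC part was not tested. Alternatives were TMM (edgeR 4.0.16), DESeq2 1.42.0 size factors, other totals, filters, lengths and a 3-fold threshold. Totals without the 10 neutrophil markers were added after seeing the data. Statistics were computed with scipy 1.17.1 and numpy 2.4.6, tables with pandas 2.3.3 under Python 3.11.15, scaling under R 4.3.3 and plots with matplotlib 3.10.9.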

Additional observations from a re-analysis of the deposited data

How the results depend on the processing

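No paired analysis was possible because both libraries belong to 1 group. The direction of no reported log2 ratio of a member changed with TMM or DESeq2 scaling or with totals that leave out the neutrophil markers, an alternative chosen after seeing the data. With a threshold of 3-fold in place of 2-fold, 1 member (Cish) was higher in library 2, beside 2.94% of all counted genes, and 2 in place of 3 were lower, beside 12.8%, since Il6ra differed by 2.46-fold. With the length of the longest transcript in place of merged exons, the ratio of Ptpn6 over Ptpn11, as the mean of both libraries, went from 58.9 to 71.0 and that of Jak1 over Jak2 from 16.6 to 24.4, and the percentile of Socs1 was 49.5 and of Ptpn6 98.65. Ranked among protein-coding genes, Socs1 stood at the 50.2nd, Pias1 at the 85.4th and Ptpn6 at the 98.56th percentile. Ranked among all genes listed, most of which had few counts or none, the percentiles were 88.9 for Socs1, 70.8 for Socs2, 74.6 for Cish, 96.8 for Pias1, 94.8 for Ptpn2, 99.7 for Ptpn6 and 94.4 for Il6ra. In single libraries the percentile ranged from 56.5 to 56.6 for Socs1, from 0.647 to 8.68 for Socs2, from 90.4 to 97.4 for Socs3, from 98.71 to 98.72 for Ptpn6 and from 60.3 to 86.2 for Il6st. The causes were not tested. With 2 libraries, the spread rests on 1 difference, and the level of a single library always lies within 1 SD of the mean, which says nothing on stability. Depth limits Socs2 and Cish in library 1, with 18 and 21 counts, and Osmr in both.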

Other observations

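Receptors outside the gp130 family that also signal through Janus kinases were read from a list of 20 genes, of which 15 were counted. Il10ra, the ligand-binding chain for the anti-inflammatory cytokine interleukin-10, was the highest of them by mean CPM, with 832 CPM in library 1 and 413 in library 2, and its partner chain Il10rb had 237 and 231 CPM. Il21r had 294 and 305 CPM, and Il13ra1 248 and 182 CPM. Il4ra, the chain shared by interleukin-4 and interleukin-13, had 416 and 110 CPM, and Csf2rb, the shared chain for GM-CSF, interleukin-3 and interleukin-5, had 247 and 70.4 CPM. Csf3r, the receptor for G-CSF, had 517 and 354 CPM, so that it was lower in the library with the higher neutrophil markers. Il10ra, Il4ra and Csf2rb were over 2-fold lower in library 2 and Prlr, with 11 and 59 counts, was over 2-fold higher, beside 25.9% and 5.74% of all counted genes. With TMM scaling Il10ra was within 2-fold. After the GC and length adjustment none of the 15 was over 2-fold lower, with log2 ratios of −0.19 for Il4ra, −0.27 for Csf2rb and −0.53 for Il10ra.

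Growth hormone and leptin receptors, whose signalling Socs2 and Socs3 are known to restrain, were hardly detected. Ghr had 2 and 5 counts and Lepr 1 and 15 counts.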
